A study of Drosophila melanogaster with 4 samples.

Results

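Long stretches of the fly genome in which no H3K9ac cluster was found in either ChIP replicate were examined in nuclei of adult heads. There were 297 such stretches, called gaps below, of 40 kb or more, among 10131 gaps of any length between clusters. They were chosen by the positions of the clusters: the clusters of both replicate lists were pooled, overlapping ones were merged, and each interval of at least 40000 bp between successive merged clusters on 2L, 2R, 3L, 3R and X was taken. A cluster is a region that the authors list as enriched, with 1 score. The number, length and position of the gaps therefore follow from the rule and are given as a description, with no test.

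The study profiled H3K9ac, an acetylated form of histone H3, by ChIP-seq, the sequencing of DNA bound to immunoprecipitated chromatin, in head nuclei of Drosophila melanogaster. The flies were mixed adults of the wild-type strain Oregon-R, raised in population cages, and nothing distinguishes the samples but ChIP or input and the replicate number. The 2 ChIP libraries each have an input library as background, and whether the replicates came from separate flies is not stated, so the spread between them may be technical. On the 5 arms the replicate 1 list held 8971 clusters, the replicate 2 list 9922 and a list for the whole series 12035. Read depth is unknown. The files hold no expression values, so the head label was not checked against marker genes.

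Acetylation of this lysine is found on nucleosomes around the promoters of transcribed genes and is removed when genes are silenced. Long intervals without it can be gene-poor sequence, long introns, groups of genes that are silent in the tissue, domains held silent by Polycomb proteins, or the repeat-rich heterochromatin near centromeres. A head is a mixture of neurons and glia with photoreceptors, muscle and fat body, and a gene that is active in few of these cells may give no cluster. Positions refer to release 5 of the FlyBase genome, as the file headers state. The genes and the sequence inside the gaps were not analysed here.

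The 297 gaps covered 21.2 Mb, or 17.8% of the 5 arms. They were 2.93% of all gaps by number but held 25.6% of the sequence outside clusters. The median gap of any length was 3.55 kb, whereas the median of those of 40 kb or more was 55.9 kb, with quartiles of 46.7 and 76.3 kb. Gap numbers fell steadily with length, with 214 gaps of 30 to 40 kb just outside the limit and 98 of 40 to 50 kb just inside it. The 39 gaps of 100 kb or more made up 30.2% of the gap sequence. The 3 shortest members were 3L 2923840 to 2963849 with 40010 bp, X 13520497 to 13560509 with 40013 bp and 2L 15771479 to 15811531 with 40053 bp. The 3 longest gaps left out were 3L 21569300 to 21609216 with 39917 bp, X 17144341 to 17184189 with 39849 bp and X 19418519 to 19458190 with 39672 bp.

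**Figure D1:**
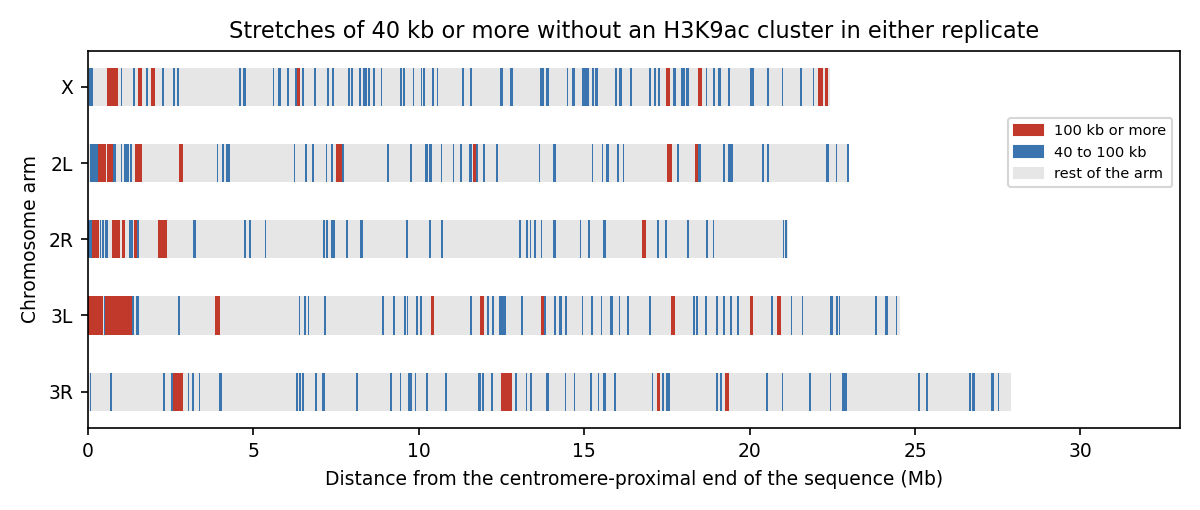
Position of each gap of 40 kb or more along the 5 arms, drawn to scale; the x axis gives the distance in Mb from the centromere-proximal end of each sequence, red marks gaps of 100 kb or more and blue those of 40 to 100 kb. Gaps lie along every arm and are crowded at the left end of 2L, 2R and 3L, where they fill 72.1%, 74.5% and 94.9% of the first 1 Mb.

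The X chromosome had a larger share of its sequence in gaps than each large autosome arm. It held 76 gaps that filled 23.5% of its length, against 221 gaps that filled 16.5% of 2L, 2R, 3L and 3R together. Among the autosome arms the share was 19.7% on 3L (61 gaps), 17.4% on 2L (58 gaps), 15.0% on 2R (45 gaps) and 13.9% on 3R (57 gaps). The difference lay in the number of gaps more than in their length. The X had 3.39 gaps per Mb and the autosome arms had 2.29, while the medians of gap length were 57.4 and 55.3 kb.

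Each replicate list on its own gave the same place to the X. With the replicate 1 list alone, gaps of 40 kb or more filled 32.2% of the X and 22.3% of the autosome arms, and with the replicate 2 list alone 27.2% and 18.1%. The shares over the single lists were 29.7% ± 3.54 on the X and 20.2% ± 2.98 on the autosome arms (SD, n = 2). The SDs are wide because replicate 1, with fewer clusters, had more gap sequence on every arm. The X over autosome ratio within a list was 1.45 in replicate 1 and 1.51 in replicate 2, and 1.43 for both lists pooled. The X exceeded each of the 4 autosome arms in both lists, and the nearest arm was 2L with 25.6% in replicate 1 and 3L with 22.4% in replicate 2. The ratio turned to 0.809 when only the upper 50% of each list by score was used, a cut on the score. Clusters that border no gap had median scores of 0.804 and 0.752 on the X, against 0.669 and 0.642 on the autosome arms.

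**Figure D2:**
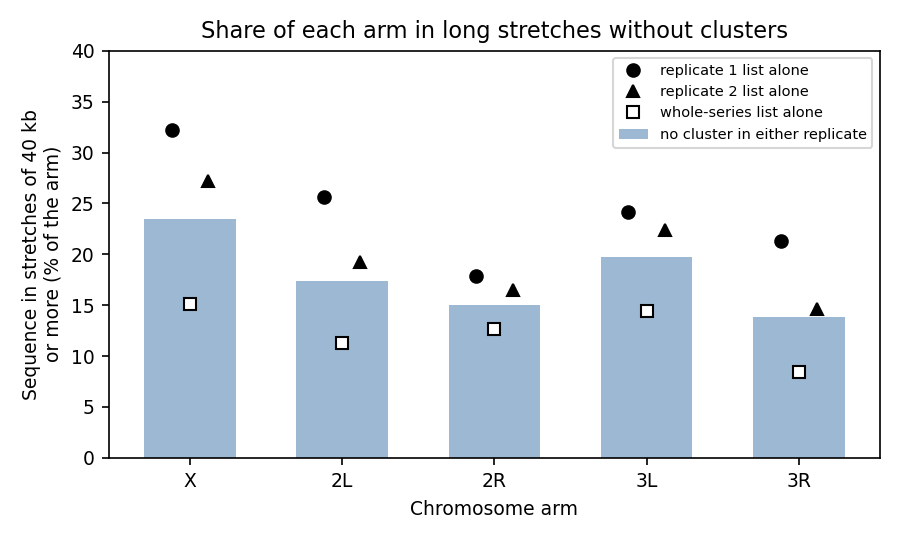
Share of each arm, in percent, in gaps of 40 kb or more; bars use both replicate lists together, circles and triangles the list of replicate 1 or 2 alone, and open squares the whole-series list alone. The X is the highest in each of the 4 series of values, with 23.5% for both lists together, 32.2% and 27.2% for the single lists and 15.1% for the whole-series list. In the whole-series list 3L is close to it, with 14.4%.

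Gap sequence was denser within 2 Mb of the centromere-proximal end than beyond on 4 of the 5 arms, but not on 3R. Within 2 Mb of that end of the 5 sequences, gaps filled 46.5% of the sequence, against 15.1% of the remainder. The list of replicate 1 alone gave 51.3% against 21.7%, and that of replicate 2 gave 47.3% against 17.3%. By arm, the first 2 Mb from that end were filled to 71.4% on 3L, 58.0% on 2L, 56.1% on 2R and 42.2% on the X. On 3R the value was 4.69%, from 2 gaps of at most 51.7 kb, and no gap had its midpoint between 1 and 2 Mb. From 2 to 3 Mb, however, 4 gaps filled 42.4% of 3R, the highest value of the 5 arms in that window. The single lists of replicates 1 and 2 gave 59.6% and 42.8% there. Gaps in the 2 Mb at the centromere-proximal ends of the 5 arms made up 22.0% of all gap sequence, so that most of it lay elsewhere. Beyond these 2 Mb, 68 gaps filled 21.6% of the X and 185 gaps filled 13.7% of the autosome arms. Mappability of reads near these ends was not tested.

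The telomere-proximal ends were different. In the outermost 1 Mb of the 4 autosome arms, gaps filled 15.1%, against 16.5% of these arms as a whole. On the X the outermost 1 Mb was filled to 37.3%, and the replicate lists alone gave 38.9% and 37.5%. This value rested on 4 gaps, the longest of which was X 190696 to 366575 with 176 kb. The adjacent window of the X, from 1 to 2 Mb, was filled to 10.8%, but to 21.23% with replicate 1 alone and 11.15% with replicate 2 alone. Between the first cluster and the telomere-proximal end of 3L there was also a stretch of 79.4 kb, and between the last cluster and the centromere-proximal end of 2L one of 48.8 kb. These are bordered on 1 side only and were not counted.

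Of the 10 longest gaps, 7 had their midpoint within 2 Mb of a centromere-proximal end. The longest was 3L 23334385 to 23707240, of 373 kb, which began 836 kb from the end. It was bordered by clusters with scores of 1.47 in replicate 1 and 1.19 in replicate 2 on its left and of 1.76 and 1.33 on its right. The second, X 21502024 to 21845696, spanned 344 kb and was bordered by scores of 1.56 and 1.36 on its left and 1.07 and 0.818 on its right. Both were free of whole-series clusters from edge to edge, and both had nearly the same ends in each list, with 373 and 373 kb for the first and 344 and 344 kb for the second.

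The third, 3R 12480773 to 12811153, of 330 kb, was of another kind. It lay 12481 kb from the centromere-proximal end, in the interior of the arm. On its left it was bordered by a cluster of 1331 bp with a score of 0.374 that was found in replicate 1 only, and on its right by one of 1793 bp that scored 0.612 in replicate 1 and 0.471 in replicate 2. No whole-series cluster lay inside it. The other gaps among the 10 longest that lay beyond 2 Mb were a 255-kb gap at 2R 2134360 to 2389177 and a 215-kb gap at 3R 2676544 to 2891144. They began 2134 and 2677 kb from the centromere-proximal end, not far past the 2 Mb limit. Each held 1 whole-series cluster, and each had on its left a cluster of 1 replicate only, with scores of 0.467 on 2R and 0.422 on 3R. That edge of the 3R gap is not firm, since in replicate 2 alone the stretch without clusters measured 386 kb.

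The others of the 10 longest lay within 2 Mb of the centromere-proximal ends. They were 3L 24225737 to 24529549 with 304 kb, 3L 23732679 to 24020878 with 288 kb, 2R 718610 to 977183 with 259 kb, 2L 22474368 to 22689088 with 215 kb and 2R 131328 to 324294 with 193 kb. None of these 5 held a whole-series cluster wholly inside. The first of them lay in a stretch of 461 kb without clusters in replicate 2 alone. Its left border, with a score of 0.212, and the left border of the adjacent 150-kb gap, with a score of 0.350, were both clusters of replicate 1 only.

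Some gaps followed each other at short distance, and how many would do so in a random order of all gaps was not tested. Between successive gaps of an arm there were a median of 19 merged clusters and 172 kb, but 34 of the 292 intervals held a single merged cluster and 73 held 5 or fewer. In this way 61 gaps formed 20 pairs and 7 groups of 3 in which only single merged clusters separated the gaps. The longest such group was 3L 23144451 to 23707240, in which 3 gaps and the 2 clusters between them spanned 563 kb with 8.17 kb of clustered sequence. The next in length was a pair, 3L 24073896 to 24529549, spanning 456 kb. The second longest group of 3 gaps was 3R 2505062 to 2891144, in which 3.37 kb of 386 kb was clustered. Of the 34 single clusters between gaps, 19 (55.9%) were found in 1 replicate only, against 25.7% of all merged clusters on the 5 arms. The largest of the 34 measured 5045 bp.

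The edges of the gaps were then described. The 297 gaps were bordered by 560 merged clusters, of which 165 (29.5%) were found in 1 replicate only, against 25.5% of the 9583 merged clusters that bordered no gap. Both edges rested on clusters found in both replicates for 144 gaps (48.5%), 1 edge did for 122 and neither for 31. The position of many edges therefore depended on a cluster of 1 library. The stretch without clusters in a single list had a median ratio to the gap of 1.002 in replicate 1 and 1.003 in replicate 2. This ratio cannot fall below 1. It is 1 by construction in a list that sets both edges, and was so for 105 gaps in replicate 1 and 71 in replicate 2. The ratio therefore cannot tell whether an edge set by 1 library is firm. The stretch exceeded 1.5 times the gap for 34 gaps in replicate 1 and for 25 in replicate 2.

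Over all gaps, clusters at the edges were slightly shorter than others, and broad clusters were scarce among them. Their median length was 2486 bp in replicate 1 and 2293 bp in replicate 2, against 2539.5 and 2468 bp for the other clusters of the same lists, a difference of -114 ± 85.9 bp (SD, n = 2). With gaps taken from 1 list alone, the difference was -203 bp without replicate 1 and -154 bp without replicate 2. The direction was the opposite near the centromere-proximal ends. Around gaps within 2 Mb of these ends, the median length of bordering clusters was 2719 bp (replicate 1) and 2587.5 bp (replicate 2), against 2449 and 2412 bp for clusters of the same windows that bordered no gap. Around the gaps beyond 2 Mb the medians were 2429 and 2264 bp, against 2549 and 2470 bp. Clusters of at least 10 kb made up 0.857% and 0.583% of the bordering clusters, 4 of 467 and 3 of 515, against 2.79% and 2.80% of the others. None of these broad bordering clusters lay on the X, where 117 and 130 clusters bordered a gap. Broad clusters were fewer on the X in any case. They made up 1.35% and 1.13% of its other clusters, against 3.09% and 3.14% on the autosome arms. Their absence at X edges is therefore not read as a trait of the X.

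With the 5 arms pooled, scores at the edges differed with where along the arm the gap lay. The score of a cluster was not used to choose the gaps, but no source used here gives its scale, so it was compared only within a list. Around gaps within 2 Mb of a centromere-proximal end, the bordering clusters had a median score of 1.24 in replicate 1 and 1.00 in replicate 2. Clusters of the same end windows that bordered no gap had medians of 0.724 and 0.683. The difference was 0.418 ± 0.143 (SD, n = 2). The arms were pooled on both sides, and bordering and other clusters of the end windows were not compared arm by arm. Around the gaps beyond 2 Mb the bordering clusters had medians of 0.723 and 0.678, against 0.695 and 0.665 for other clusters there, a difference of 0.0203 ± 0.0106. Over all gaps the difference was 0.0494 ± 0.0282. It was positive in both lists with all arms together but small beside the quartiles of the bordering scores, which were 0.538 and 1.16 in replicate 1. With gaps taken from 1 list alone it was 0.0262 without replicate 1 and 0.0123 without replicate 2, and with the upper 50% of the clusters by score it turned to -0.00651. Of the 5 arms, 3L alone had a positive difference in both lists, with 0.0771 in replicate 1 and 0.0767 in replicate 2. It was -0.00929 and -0.00457 on the X, -0.0135 and 0.00516 on 2L, 0.126 and -0.0123 on 2R, and 0.000911 and -0.0357 on 3R.

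The contrast was widest for the longest gaps. Of gaps of 100 kb or more, 15 lay within 2 Mb of a centromere-proximal end and 24 beyond it. The clusters that bordered the first had median scores of 1.52 in replicate 1 and 1.30 in replicate 2, and 74.1% and 64.0% of them scored at least 1. Those that bordered the second had medians of 0.590 and 0.622, and 16.7% and 15.8% of them scored at least 1. The medians for the first were thus above those for the second in both lists. The medians by arm cover gaps of all lengths within the 2 Mb, and were highest on 2L, 2R and 3L. Bordering clusters had medians of 1.54 and 1.40 on 3L, 1.32 and 1.28 on 2R, and 1.34 and 0.957 on 2L. On the X they had 0.763 and 0.711, from 11 and 14 clusters. Over the whole X, clusters that bordered no gap had higher medians than these, with 0.804 and 0.752. The X gaps of 100 kb or more within the 2 Mb each had an edge that scored over 1 in replicate 1. X 20396852 to 20525412 had 1.67 and 1.43 on its left, and 0.675 in replicate 2 only on its right. X 20796205 to 20897989 had 1.05 and 0.986 on its left and 0.568 and 0.461 on its right. X 21502024 to 21845696 had 1.56 and 1.36 on its left and 1.07 and 0.818 on its right. On 3R the medians of bordering clusters within the 2 Mb were 0.837 and 0.804, from 4 clusters in each list. Clusters of 1 list are not replicates, and no p-value was computed.

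**Figure D3:**
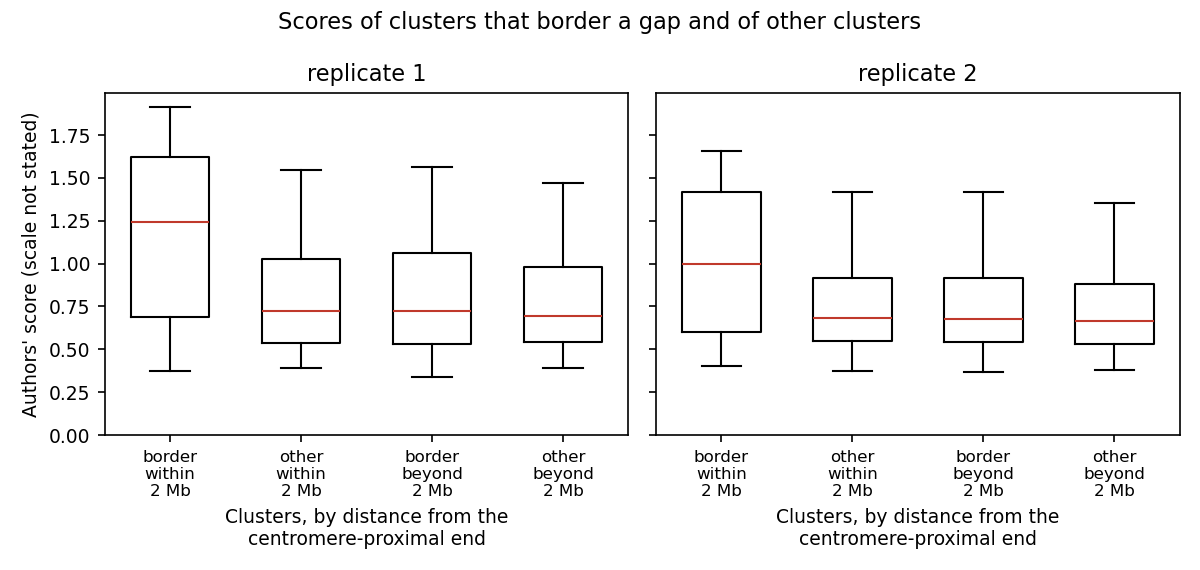
Scores (the authors' score, scale not stated) of clusters that border a gap and of other clusters, within and beyond 2 Mb of the centromere-proximal end, for each replicate list; boxes span the quartiles, the red line is the median and whiskers reach the 5th and 95th percentiles. With the 5 arms pooled, bordering clusters within 2 Mb stand highest, with medians of 1.24 and 1.00, and the other 3 groups have medians of 0.665 to 0.724.

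The 3 highest-scoring bordering clusters of replicate 1 were 2R 18739720 to 18743732 with 2.15, 2R 7338561 to 7342356 with 2.08 and 3L 24529550 to 24532263 with 2.06. The first was also the highest in replicate 2, with 2.08, and the second scored 2.00 there. The third highest in replicate 2 was 3L 23141453 to 23144436 with 1.96, which scored 2.01 in replicate 1. The clusters on 2R bordered gaps of 51.0 and 41.1 kb, and the pair on 3L gaps of 304 and 53.8 kb. None of these 4 gaps held a whole-series cluster wholly inside.

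The surroundings of the gaps were covered about as much as whole arms, and less than the arms without their gaps. In the 50 kb beyond each edge, bordering cluster included, clusters covered 25.4% of the sequence in replicate 1 and 26.8% in replicate 2. Cover was 25.3% and 27.6% over the whole arms and 30.8% and 33.5% over the arms without the gaps, and these 50 kb windows can reach into a neighbouring gap. On the X, the windows were covered to 26.4% and 27.4%, against 22.1% and 22.9% of the whole X and 28.9% and 29.9% of the X without its gaps.

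Gaps found in 1 replicate were then read in the other, which the choice had not used. The 399 gaps of at least 40 kb in the replicate 1 list alone were covered to 2.85% by clusters of replicate 2, against 35.5% of the rest of the arms. The 323 gaps of the replicate 2 list alone were covered to 1.09% by clusters of replicate 1, against 31.3% of the rest. Of the sequence in replicate 1 gaps, 73.6% lay in a gap of at least 40 kb in replicate 2, and 89.8% the other way round. The X and the autosome arms gave 2.73% and 2.89% for replicate 1 gaps and 1.37% and 0.986% for replicate 2 gaps. Both libraries were prepared from the same kind of chromatin and share whatever sequence cannot be mapped, which was not tested.

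The clusters that 1 replicate placed inside gaps of the other were weak. Inside replicate 1 gaps lay 414 clusters of replicate 2, whose scores had a median of 0.542 and whose lengths had one of 1616 bp. The other clusters of replicate 2 had 0.676 and 2513 bp. Inside replicate 2 gaps lay 118 clusters of replicate 1, with 0.498 and 1529.5 bp, against 0.703 and 2562 bp. The highest scores among them were 0.927 and 0.840, so that none of these clusters reached a score of 1. Among clusters that bordered no gap of both lists, 23.6% in replicate 1 and 17.5% in replicate 2 scored at least 1. Clusters inside gaps of the other list are found in 1 replicate by construction. They were not compared with clusters of 1 replicate outside gaps, so whether the low scores are particular to gaps was not tested.

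**Figure D4:**
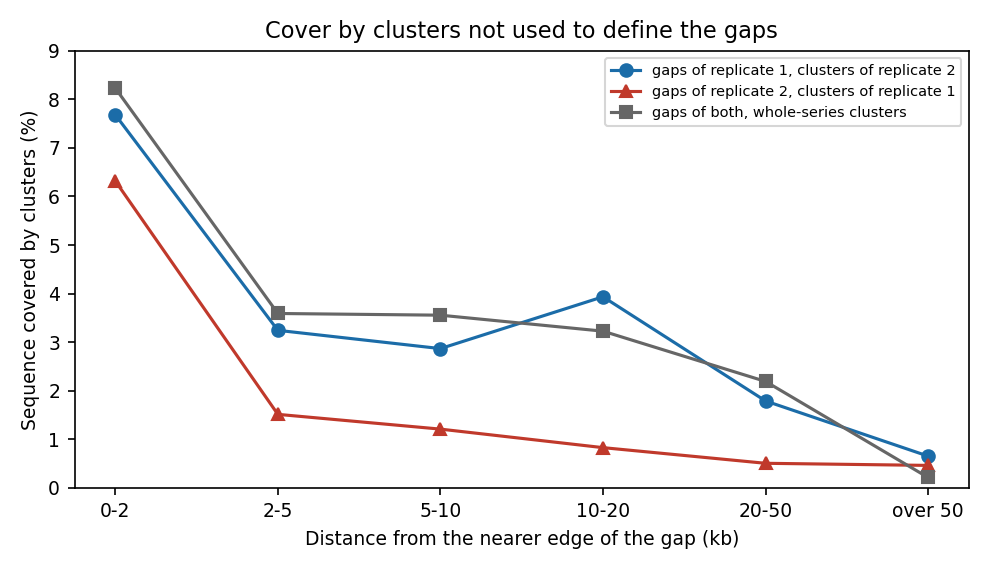
Percent of gap sequence covered by clusters that did not define the gaps, by distance in kb from the nearer edge; circles show replicate 1 gaps read with replicate 2 clusters, triangles the reverse, and squares the gaps of both replicates read with the whole-series list. Cover was 6.32% to 8.23% within 2 kb of an edge and 0.213% to 0.653% at more than 50 kb from it, a distance found only in gaps longer than 100 kb.

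Cover inside gaps was highest next to the edges. Within 2 kb of an edge, replicate 1 gaps were covered to 7.68% by replicate 2 clusters, and replicate 2 gaps to 6.32% by replicate 1 clusters. At 20 to 50 kb from the edge the values were 1.79% and 0.505%, and at more than 50 kb 0.653% and 0.462%. The decline was not even in replicate 1 gaps, where cover was 2.87% at 5 to 10 kb and 3.93% at 10 to 20 kb. Cover counted every base, so the value next to an edge includes clusters that reach across it. Only gaps longer than 100 kb have sequence more than 50 kb from both edges. The bins thus mix distance with gap length, and the 2 were not told apart.

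The whole-series list placed 389 clusters wholly inside the gaps, 3.23% of its clusters on the 5 arms. This list comes from the same libraries and is not independent of the replicate lists. These clusters were short and low in score, with medians of 1325 bp and 0.368, while the other clusters of the list had medians of 2533 bp and 0.490. Of the 389, 181 (46.5%) were shorter than 1301 bp, the length of the shortest cluster in either replicate list, against 10.5% of the others. Whole-series clusters inside gaps of 10 to 40 kb were like them, with 1309 bp and 0.361.

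The clusters were spread unevenly over the gaps. At least 1 lay wholly inside 167 gaps (56.2%), and 130 gaps held none. Of the 2046 gaps of 10 to 40 kb, which have less room for a cluster, 901 (44.0%) held at least 1. In 28 of the 297 gaps no base at all was covered by the whole-series list. Gaps within 2 Mb of a centromere-proximal end held 4.07 such clusters per Mb of gap, against 22.5 per Mb in the gaps beyond. For gaps of 100 kb or more these densities were 1.96 and 9.58 per Mb, and for shorter ones 8.05 and 25.7 per Mb. The density was thus lower in gaps of 100 kb or more in both positions, and lower near the centromere-proximal ends in both length classes. Between 40 and 100 kb it did not fall with length, since all gaps of 60 to 100 kb together held 23.9 clusters per Mb and those of 40 to 60 kb 23.7. The gaps of 10 to 40 kb held more, 35.6 per Mb. By arm, gaps on the X held 22.6 clusters per Mb, those on 3L 20.1, on 3R 18.6, on 2L 17.2 and on 2R 10.1. With the whole-series clusters taken as breaks too, 194 gaps (65.3%) still held a stretch of at least 40 kb without any cluster.

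**Figure D5:**
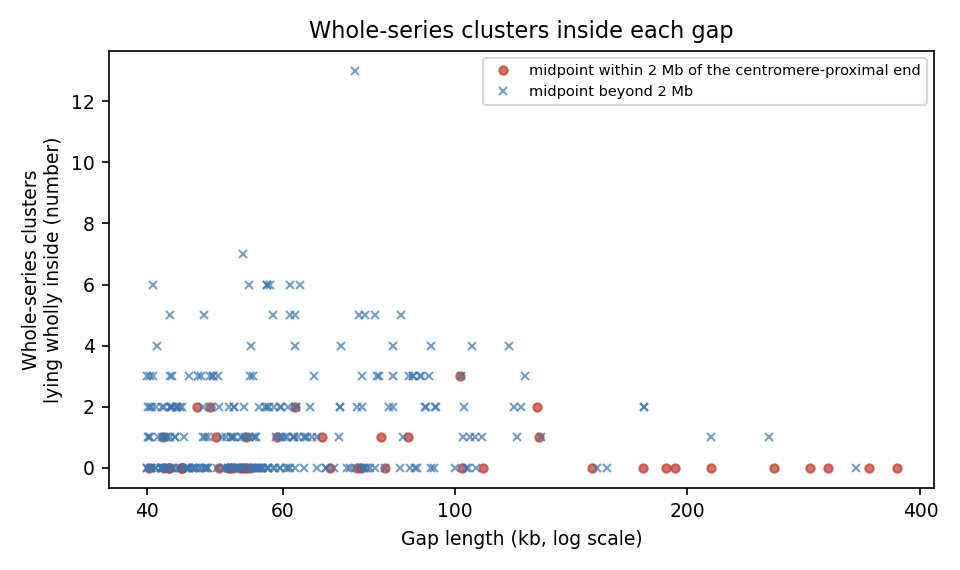
Number of whole-series clusters lying wholly inside each gap against gap length in kb (log scale); circles are gaps with their midpoint within 2 Mb of a centromere-proximal end and crosses the other gaps. The 1 gap with 13 clusters measures 74.5 kb, and 8 of the 10 longest gaps hold none.

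The most clusters, 13, lay in X 13740577 to 13815027, a gap of 74.5 kb that was covered to 25.2% by the whole-series list and whose longest free stretch was 31.2 kb. The highest score among its 13 clusters was 0.497. X 848999 to 902308, of 53.3 kb, held 7, and 7 gaps held 6 each. High scores inside gaps were rare. The highest were 2R 15603410 to 15604410 with 2.02, X 5421520 to 5422642 with 1.90 and X 196524 to 197604 with 1.44. They measured 1001, 1123 and 1081 bp, each shorter than every cluster in the replicate lists, and lay 20.6, 9.04 and 5.83 kb from the nearer edge of gaps of 78.9, 40.4 and 176 kb. Apart from these 3, the next score inside a gap was 1.04.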

How the data were processed

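The submitters' processing notes name Bowtie 0.12.7. Enriched regions were deposited by the authors as 3 lists, with positions in bp on FlyBase release 5 (per the file headers) and 1 score per region. No source used here states the caller, its threshold, the scale of the score or how the replicates were joined for the whole-series list. The labels place each input behind the ChIP list of the same number, and the inputs were not analysed on their own.

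Clusters sharing at least 1 bp were merged over both replicate lists. The 297 gaps were identical in bedtools 2.31.1, and the search was tested on simulated data. Chromosome 4, U, Uextra and the Het sequences were left out. The centromere-proximal end is the last base of 2L, 3L and X and the first base of 2R and 3R. SDs are over the 2 replicate lists. No test was made, since the members were chosen by the positions and clusters are not replicates. Python 3.11.15, numpy 2.4.6, pandas 2.3.3 and matplotlib 3.10.9 were used.

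The members, comparisons and alternatives were chosen with earlier results of these data known. Named regions were the 10 longest gaps, the longest of each arm, those nearest to 40 kb, those with the most or the highest-scoring whole-series clusters inside, the highest-scoring bordering clusters and the longest group of gaps. Values split at 2 Mb from the centromere-proximal end were added with the data in view.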

Additional observations from a re-analysis of the deposited data

How the results depend on the processing

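Counting the stretches at the arm ends left 8 main values within the spread of the single lists, and the share of merged bordering clusters found in 1 replicate stayed at 29.5%. With a minimum of 30 kb there were 511 gaps filling 23.9% of the arms, and with 80 kb 66 gaps filling 7.37%. The X over autosome ratio was then 1.34 and 1.32, the share of gap sequence in the 2 Mb at centromere-proximal ends 18.5% and 37.4%, and the score of whole-series clusters inside gaps minus that of the others -0.128 and -0.103, and 80 kb gave a bordering minus other score of 0.0737. With the upper 50% of each list by score there were 636 gaps filling 41.3%, with a ratio of 0.809 and 11.5% of gap sequence in the end windows. Of these gaps 92.0% held whole-series clusters, at a score difference of -0.225. The bordering minus other score reversed to -0.00651, in lists cut on the compared score. When only clusters with a partner broke gaps, there were 449 filling 27.9%, with a ratio of 1.48, 15.6% of gap sequence in the end windows, 82.6% of gaps holding whole-series clusters, a score difference of -0.155 inside and of 0.00310 at the edges, and a length difference of -273 bp. End windows of 1 and 3 Mb held 14.1% and 26.8% of gap sequence. Counting any overlap, 90.6% of gaps held whole-series clusters, at a difference of -0.0683.

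From 1 list alone, gaps filled 19.8% to 24.2%, the ratio was 1.45 to 1.51, the end windows held 17.8% to 20.1%, whole-series clusters lay in 68.1% to 74.2% of gaps with a difference of -0.135 to -0.128, and the edges differed by 0.0123 to 0.0262 in score and -203 to -154 bp in length. Further settings were chosen after seeing the data. With whole-series clusters as breaks too, gaps filled 12.1%, with a ratio of 1.30, 30.1% in the end windows and edge differences of 0.0951 and -62 bp. Without gaps in the 2 Mb at centromere-proximal ends, the ratio was 1.58, 60.9% of gaps held whole-series clusters and the edge differences were 0.0183 and -159 bp. The share of merged bordering clusters found in 1 replicate has no value from single lists and is 0 by construction where only clusters with a partner were used. The cause of these shifts was not tested beyond what each setting fixes. No paired analysis was possible because the inputs enter only through the clusters, so that ChIP was not compared with input. With depth unknown, whether deeper libraries would break these gaps cannot be told.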

Other observations

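The stretches of arm without any gap of 40 kb or more were also measured. The longest lay on 3L from 18163135 to 20533723, with 232 merged clusters in 2371 kb, followed by 2R 10734175 to 13030548 with 237 in 2296 kb and 3R 4045301 to 6278740 with 232 in 2233 kb. None of the 5 longest lay on the X, which makes up 22.4 of the 119 Mb, so this count is too small to set the X apart. Of 117 windows of 1 Mb, 15 held no gap sequence. They were 5 of 21 on 2R, 5 of 27 on 3R, 3 of 23 on 2L, 1 of 24 on 3L and 1 of 22 on the X. In 3 windows gaps filled 50% or more, and these were the 1 Mb next to the centromere-proximal ends of 2L, 2R and 3L.

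The edge on the centromere side of a gap and the edge on the telomere side were set against each other. Among gaps with a cluster of the same list on both edges, the median score was 0.746 on the centromere side and 0.805 on the telomere side in replicate 1 (197 gaps), and 0.714 and 0.682 in replicate 2 (233 gaps). The centromere side was the higher one in 90 and 108 of them. The order of the medians thus differed between the replicates.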
